A study of Rattus norvegicus with 11 samples.

Results

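This account follows 1 microRNA, rno-miR-210, in pancreatic islets of rats, as 1 of the 340 miRNA names that 2 array designs have in common. Every probe that carries this name was taken, on all 11 arrays. Islets came from female Sprague Dawley offspring, 13 weeks old, whose fathers were either HFD, on pellets with 43% fat, or Control, on chow with 9% fat. All of the mothers and all of the daughters ate chow, so diet differed in the fathers alone. Fathers mated at 15 weeks of age, and daughters were weaned at 3 weeks. Before islets were taken, every daughter had been given glucose by injection at 6 weeks and again at 12 weeks, and insulin at 11 weeks, as tolerance tests. There were 5 HFD and 6 Control arrays, of which 4 HFD and 4 Control arrays were of the first design (350 miRNAs) and 1 HFD and 2 Control arrays of the second (677 miRNAs). The labels give each sample its own number and do not say which daughters had a father or a litter in common, so the spread below is that between these samples. miR-210 was chosen by its own fitted difference between the diet groups, which was already known to be among the lowest in this series. That difference is therefore given as a description, with no test.

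MicroRNAs are short RNAs that guide a silencing complex to matching sites in mRNAs. miR-210 is the miRNA most regularly raised by low oxygen, because the hypoxia-inducible factor HIF-1 switches on its gene. Its known targets include the iron-sulphur cluster scaffold proteins ISCU1 and ISCU2 and the receptor ligand ephrin-A3, and by lowering ISCU it dampens mitochondrial respiration. Beta cells, the insulin-producing cells of the islet, couple glucose to insulin release through that same respiration. No oxygen level, mRNA or protein was measured on these arrays.

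In the RefSeq annotation of the rat build GRCr8, Mir210 is a 110-base hairpin on the minus strand at chr1:205755923-205756032. It lies within the long noncoding RNA gene LOC102553043 (chr1:205754978-205763340), between the protein-coding genes Rassf7 and Phrf1. The hairpin is shown because 3 separate array probe sets come from this locus, with its 5p arm and then its 3p arm in capitals.
Mir210 hairpin: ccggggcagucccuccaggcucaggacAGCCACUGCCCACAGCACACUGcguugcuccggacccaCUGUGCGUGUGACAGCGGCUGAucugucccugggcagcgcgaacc
By the older naming of miRNAs, miR-210 is the 3p arm and miR-210* the 5p arm. The arms are assigned here by these names alone, since probe sequences were not used. A further miRNA gene, Mir3574, lies on the plus strand over the same bases, and its mature form is the exact reverse complement of miR-210-3p. The mature sequences follow 5′ to 3′, with the seed (bases 2 to 8, which pair with targets) in capitals.
miR-210-3p: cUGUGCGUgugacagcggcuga
miR-210-5p: aGCCACUGcccacagcacacug
miR-3574: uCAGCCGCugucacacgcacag
miR-147: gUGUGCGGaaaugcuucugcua
Of 724 rat mature miRNAs in the RefSeq table, miR-210-3p was the 1 with this seed. miR-147 matches it over bases 2 to 7 and is shown for that reason. miR-147 was not detected on any of the 11 arrays, with 0 of its 20 spots well above background on each. miR-210* and miR-3574 were on the second design and were not detected on any of its 3 arrays, where each of their probes had 0 of 10 spots well above background. Of the miRNAs of this locus with probes on these arrays, miR-210 itself was thus the one detected, and it was detected on all 11.

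miR-210 read lower in HFD than in Control islets on the first design, with overlapping groups. Between 105 (HFD 653) and 184 (HFD 640) of the shared miRNAs were detected per array. Values are signals summed over its probes, scaled to each array's 75th percentile over 85 miRNAs detected on all arrays. On the first design the scaled signal was 109.9, 139.2, 164.9 and 142.0 in HFD 603, 607, 644 and 653. It was 184.1, 157.4, 219.0 and 179.5 in Control 602, 613, 615 and 639. The lowest 3 arrays of this design were HFD, but HFD 644 lay above Control 613. On the second design HFD 640 read 80.1, against 72.0 in Control 635 and 74.6 in Control 652, so there the HFD array was the highest. On the log2 scale HFD averaged 7.10 ± 0.24 on the first design and Control 7.52 ± 0.20 (SD, n = 4 each), a difference of -0.42. On the second design it was 6.32 on the HFD array and 6.20 ± 0.04 in Control (SD, n = 2), a difference of 0.13.

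**Figure D1:**
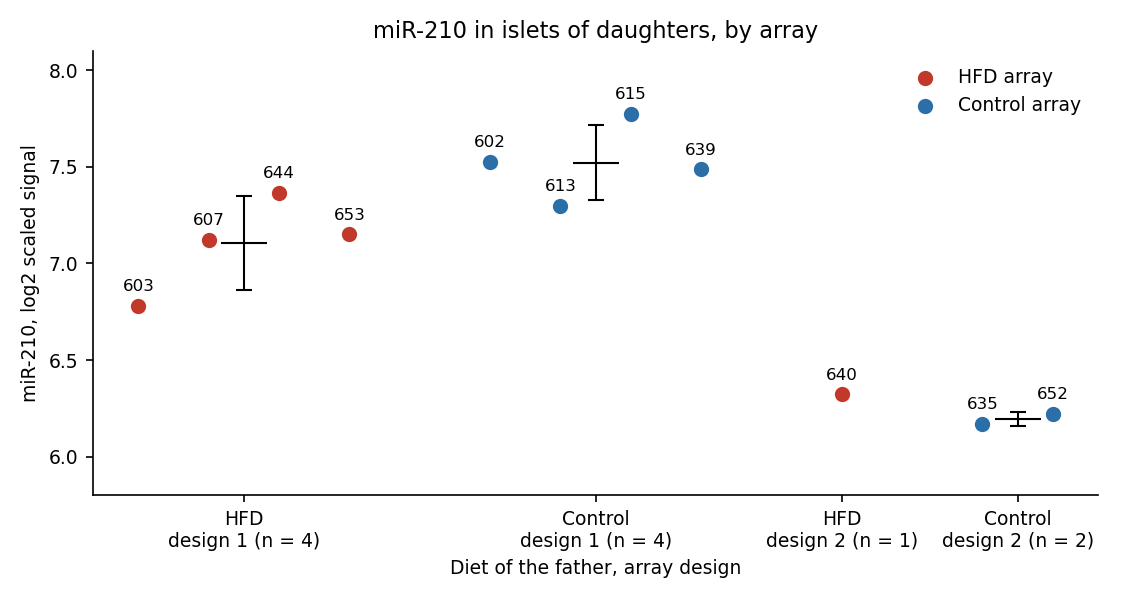
Log2 scaled signal of miR-210 on each array (points, labelled with the sample number), by the father's diet and array design, with HFD left of Control. Black bars are the mean and SD of groups with more than 1 array. On the first design HFD spans 6.78 to 7.37 and Control 7.30 to 7.77, and on the second HFD lies at 6.32 and Control at 6.17 and 6.22.

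With array design as a block, the fitted difference was -0.28 ± 0.14 (SE) on the log2 scale, HFD minus Control, which is 0.823 times the Control level. Of the 152 miRNAs tested, meaning detected on at least 5 arrays, 3 had a lower difference. The median difference over the 152 was 0.066. In the same fit with limma, 0 of 152 miRNAs (0%) passed an adjusted p of 0.05, and 3 (1.97%) had an unadjusted p under 0.05. Arrays of one group on one design differed in miR-210 by an SD of 0.20, a factor of 1.15. Its residual SD of 0.23 was below the median of 0.31 over the 152, and 36.8% of them had a smaller one.

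The scaling matters for how this difference reads. On every array of the first design, the miRNA at the 75th percentile was miR-26b, so a scaled value there is in effect the signal relative to miR-26b.
miR-26b-5p: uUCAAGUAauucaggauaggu
miR-210 had 10.8%, 13.7%, 16.2% and 14.0% of the signal of miR-26b on HFD 603, 607, 644 and 653, and 18.1%, 15.5%, 21.5% and 17.6% on Control 602, 613, 615 and 639. These percentages compare arrays and are not a ratio of molecules. With the geometric mean of the 85 miRNAs as the scale, an alternative chosen after seeing the data, the fitted difference was -0.36. With that percentile taken over all 340 names it was -0.51, with the median -0.43 and with quantile normalisation -0.43. In the authors' deposited log2 tables, which carry no scaling between arrays, miR-210 stood at 6.57, 7.11, 7.32 and 6.79 in HFD 603, 607, 644 and 653 and at 7.12, 7.19, 7.30 and 7.25 in Control 602, 613, 615 and 639. There HFD 603 and 653 were low and HFD 607 and 644 were close to the Control values. The second deposited table held 6.71 in HFD 640 and 5.58 and 6.70 in Control 635 and 652, where Control 635 was low. The first table holds log2 of the signal plus 50, and the second has no such offset. The difference fitted over both tables together, 1 with the offset and 1 without, was -0.058 ± 0.24 (SE). It is not the difference within either table alone. With the values of this report left without scaling between arrays, and with no offset, it was -0.21 ± 0.35 (SE).

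The difference shifted both ways when single arrays were left out. Without HFD 603, the lowest array of the first design, it was -0.19, and without Control 615, the highest, -0.20. Leaving out such an end array shrinks the difference by construction. Without HFD 653 it was -0.28, and without both HFD 603 and HFD 653, added after seeing the data, -0.14. Without Control 613 it was -0.32, without HFD 644 -0.33 and without HFD 640 -0.42. With array weights it was -0.17. Over 29 alternatives the value ran from -0.51 to -0.058. The arrays of the first design lay in 2 rows of the slide, each with 2 HFD and 2 Control arrays, and the difference was -0.46 within the first row and -0.37 within the second.

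**Figure D2:**
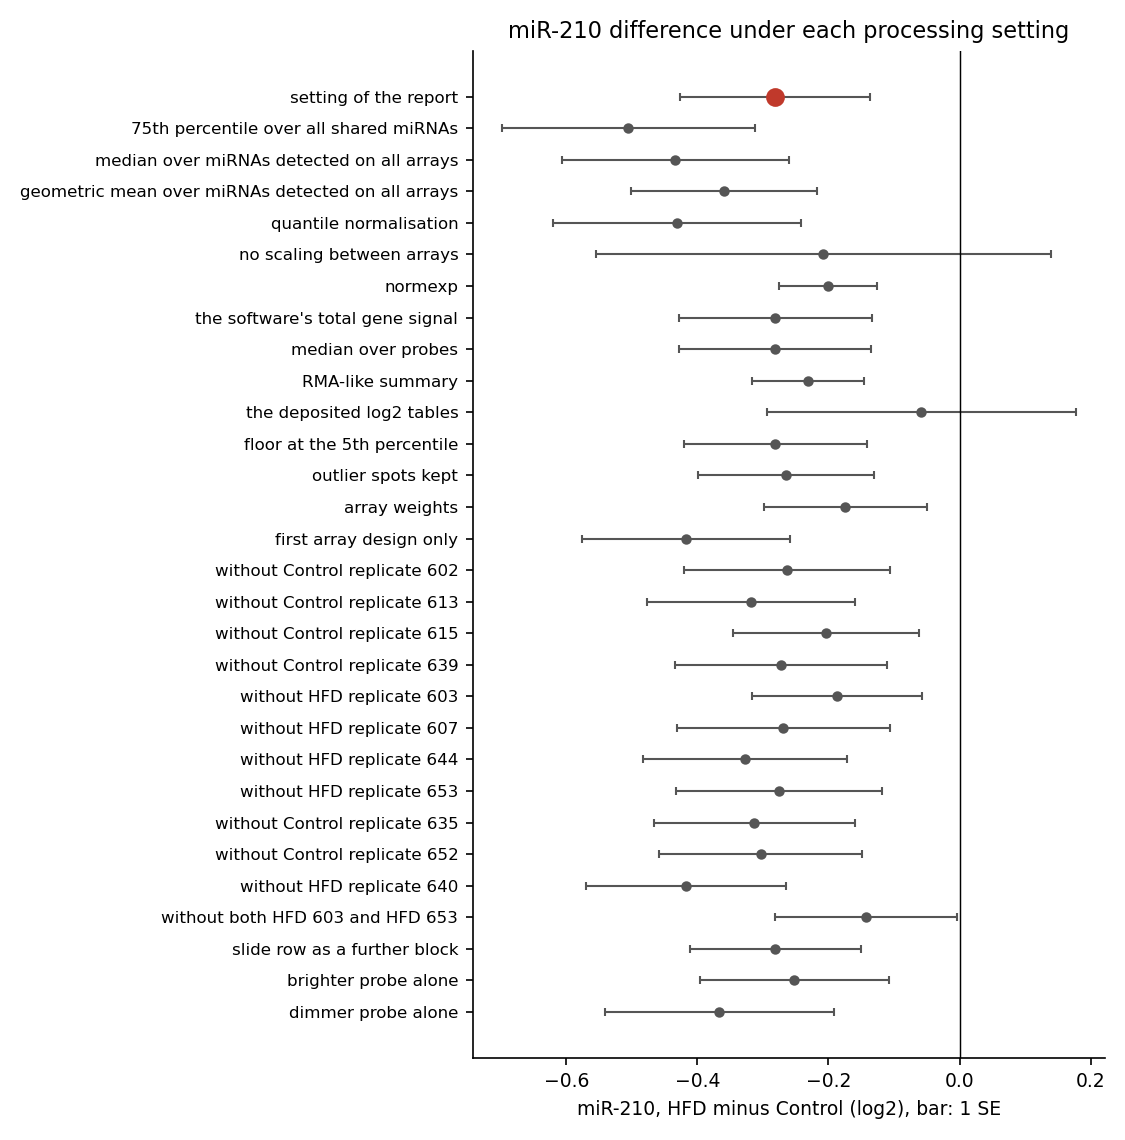
Fitted difference in miR-210, HFD minus Control on the log2 scale (points, with bars of 1 SE), under the setting of the report (red, top) and 29 alternatives. The values run from -0.51, with the percentile taken over all 340 names, to -0.058 in the deposited tables.

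miR-210 has the same pair of probes on both designs, each printed as 10 spots per array, and both probes read lower in HFD on the first design. The brighter probe (A_26_P00001472) gave 6.67 ± 0.23 in HFD and 7.06 ± 0.21 in Control on the log2 scale (SD, n = 4 each), a difference of -0.39. The dimmer probe (A_26_P00001473) gave 5.14 ± 0.38 in HFD and 5.66 ± 0.16 in Control (SD, n = 4 each), a difference of -0.52. On the second design the differences were 0.15 for the brighter and 0.090 for the dimmer probe. Within the slide rows of the first design they were -0.43 and -0.35 for the brighter probe and -0.55 and -0.48 for the dimmer one. The probes share a target and an array, so they are not replicates of the diet groups.

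The scaled signal of the brighter probe was 81.6 on HFD 603, its lowest first-design array, with a coefficient of variation of 9.36% over its 10 spots. On Control 615, its highest, it was 160.2 with 11.3%. Over all arrays this coefficient ran from 5.91% on Control 639 to 16.8% on Control 602. For the dimmer probe it ran from 9.57% on HFD 640 to 50.5% on HFD 653. On HFD 653 and on Control 635 the dimmer probe had 0 of 10 spots well above background, and the brighter one 8 and 7. On the other 9 arrays at least 9 of 10 spots of each probe were well above background, and no spot was saturated. The dimmer probe is thus the less certain of the pair, above all on HFD 653, where the spread of negative control spots was 38.2, while the remaining first-design arrays had 6.38 to 7.53.

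**Figure D3:**
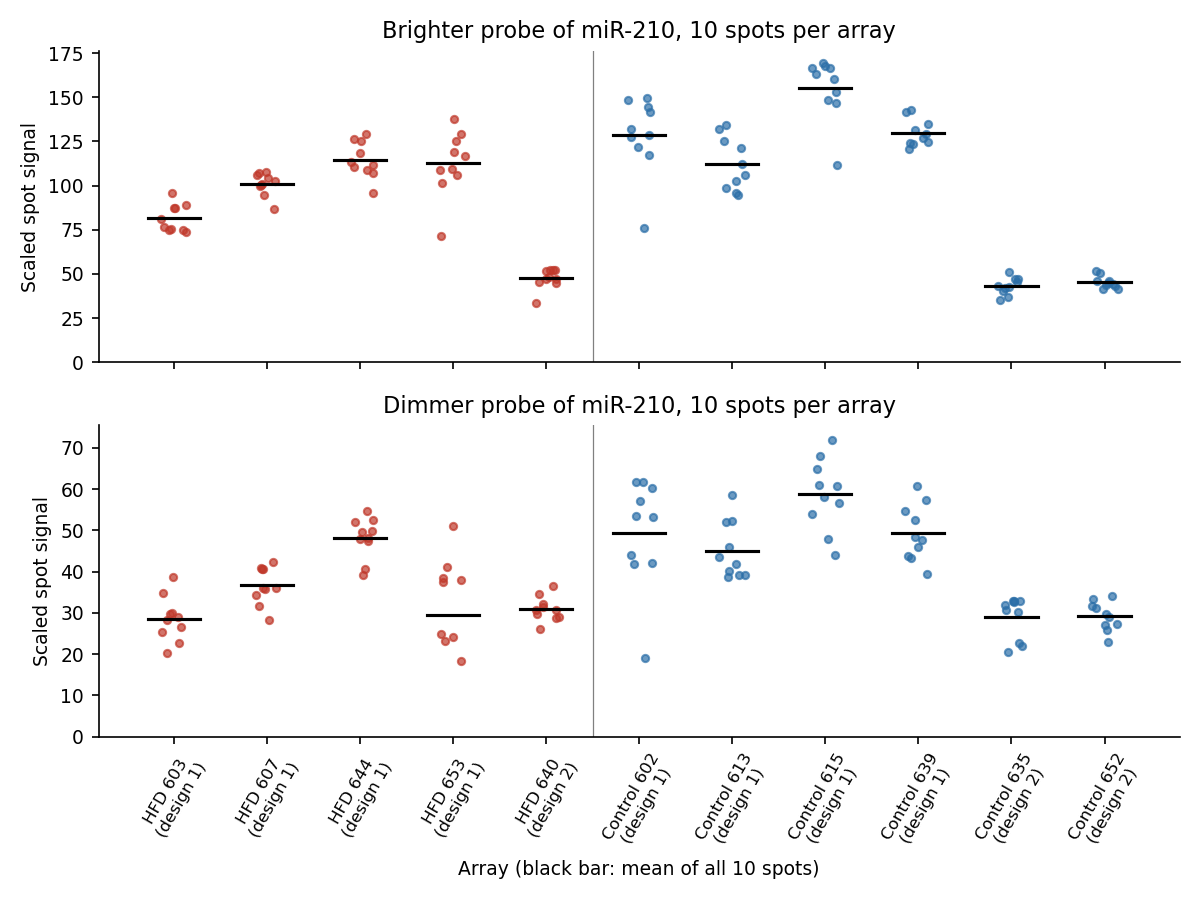
Scaled signal of the spots of the brighter (top) and the dimmer (bottom) probe of miR-210 on each array, HFD left of the grey line and Control right of it. A dimmer-probe spot on HFD 653, at -1.71, lies below the axis and is not shown. Each array has 10 spots per probe and a black bar at the mean of all 10, outlier spots included. The values of the text leave outlier spots out, so they can differ from the bars. In them, on the first design, the brighter probe reads 81.6 to 114.6 in HFD and 112.3 to 160.2 in Control. The dimmer probe reads 28.3 to 50.3 in HFD and 45.1 to 58.7 in Control.

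The 2 designs differed in direction for miR-210. The second-design minus first-design difference between the diet groups was 0.54 ± 0.31 (SE) on the log2 scale, given as a description because miR-210 was chosen by its diet difference. On the second design it rests on HFD 640 as the only HFD array, which was assumed in this fit to vary like the others. The ratio of the brighter to the dimmer probe lay between 2.28 and 2.88 on first-design arrays and at 1.55 and 1.59 on second-design arrays, leaving out HFD 653 and Control 635, where the dimmer probe was not well above background. This ratio compares arrays only, since 2 probes bind with unlike strength. Levels of miR-210 were therefore not compared between designs.

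None of the other tested miRNAs tied to the hypoxia response passed the test. The first list holds 15 miRNAs that low oxygen raised in screens of human cell lines. All 15 were on both designs and 13 were tested. Of these, 9 read above 0 and 4 below, with a median of 0.074, beside 108 above 0, 44 below and a median of 0.066 over all 152. None of the 13 passed the test (0, against a background of 0%). miR-26b, one of the 13, is fixed by the scaling on the first design. miR-210 itself, at -0.28, lay below each of them, which its choice by a low difference made likely beforehand. miR-181a, of a family with many roles in lymphocytes, had the highest value of the list at 0.70 ± 0.38 (SE). It read 77.7, 39.8, 19.8 and 76.9 on HFD 603, 607, 644 and 653, against 15.0 to 36.0 on the first-design Control arrays. It was called not detected on HFD 653 and on Control 635. miR-192, a miRNA of liver and gut epithelium, had 0.18 ± 0.17 and miR-27a 0.15 ± 0.15 (SE each). miR-23a had 0.13 and miR-24 0.078, both of the same cluster as miR-27a. miR-103 and miR-107, near-identical miRNAs that in mice target caveolin-1, a regulator of insulin signalling, had -0.0027 ± 0.099 and 0.013 ± 0.11 (SE each). miR-125b-5p had 0.098, miR-93 0.074, miR-195 0.030, miR-23b -0.018, miR-26b -0.014 and miR-26a, with the lowest value of the list, -0.024. miR-93, whose value is the list median, was called not detected on HFD 603 and 653 and on Control 602 and 635. On the first design it lay between 3.36 and 3.86 on the log2 scale, close to the floor of 3.36.

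The second list holds 8 miRNAs reported to act on HIF subunits or on proteins that control them. On both designs 7 were present, and 3 were tested. miR-20a, a cluster mate of miR-17, had -0.035 ± 0.32, miR-322, the rodent counterpart of human miR-424, had 0.049 ± 0.31, and miR-429, of the miR-200 family, had 0.055 ± 0.099 (SE each). Both miR-20a and miR-322 were called not detected on HFD 653, and miR-20a also on Control 635. Of the 3, 2 read above 0 and 1 below, and 0 were called. Which side of 0 the list medians fell on depended on the scaling. With the percentile over all 340 names the medians were -0.15 for the first list and -0.17 for the second. Under that scaling miR-210 also moved down, to -0.51. A change of scaling factor moves all miRNAs above the floor on an array alike, so this shift is not particular to the lists. The median over all tested miRNAs is not given for that scaling. The negative list medians are therefore not read as a result about miRNAs tied to hypoxia.

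**Figure D4:**
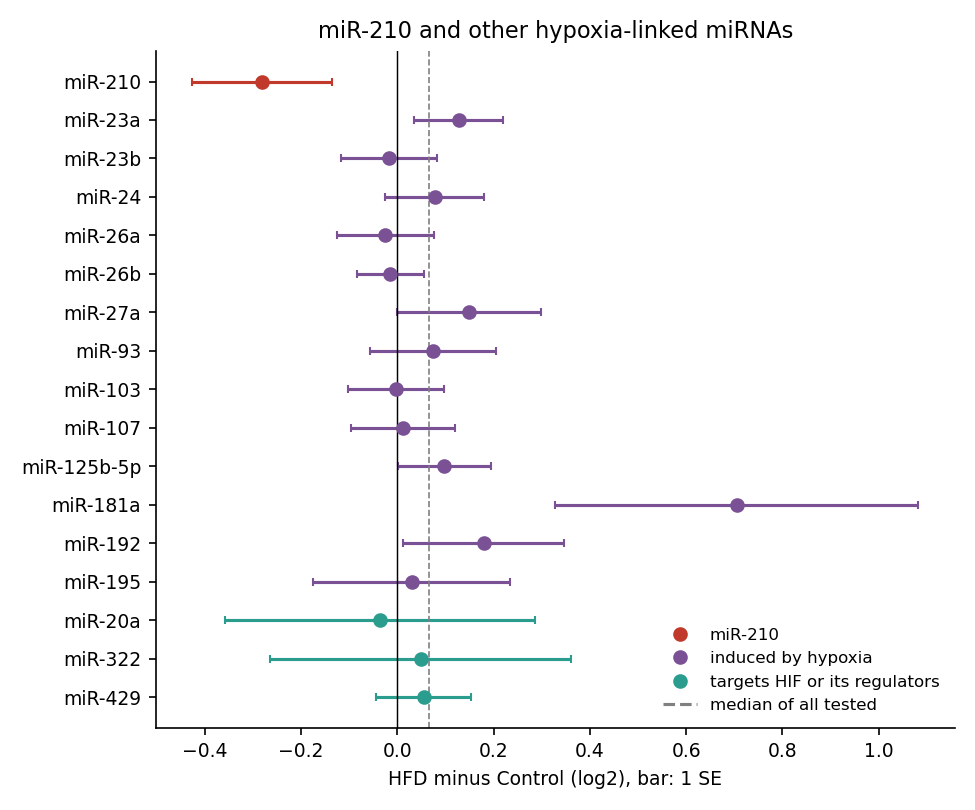
Fitted HFD minus Control difference on the log2 scale (points, with bars of 1 SE) of miR-210 (red, top), the 13 tested miRNAs raised by hypoxia in cell lines (purple) and the 3 tested miRNAs that act on HIF or its regulators (green). The dashed line is the median of all 152 tested miRNAs, 0.066. miR-210 lies at -0.28, and the others lie between -0.035 and 0.70.

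The arrays carried the miRNA signature of islets. Of the 3 leukocyte markers, only miR-150, of lymphocytes, was higher on every HFD array than on every Control array of its design. miR-375 and miR-7a, the defining endocrine miRNAs, were both detected on all 11 arrays. Their summed scaled signal on the first design ran from 10583 to 13051 in HFD and from 10097 to 14367 in Control. In bulk islets, fewer cells of a type and less of the RNA per cell cannot be told apart. miR-150 read 209.0, 25.1, 13.4 and 71.2 on HFD 603, 607, 644 and 653, against 12.5, 10.6, 11.9 and 9.48 on Control 602, 613, 615 and 639. On the second design it read 24.2 on HFD 640, against 15.3 on Control 635 and 13.9 on Control 652. miR-150 was close to the floor of 10.3 on HFD 644 and on the first-design Control arrays, and below it on Control 639. It was called not detected on HFD 653 and on Control 615, 639 and 635. Its fitted difference of 1.73 ± 0.61 (SE) was the highest of the 152 tested and did not pass (limma adjusted p = 0.987, unadjusted 0.0180). The acinar marker miR-216a had 0.68 ± 0.84 (SE), and the leukocyte marker miR-223 0.14 ± 0.31 (SE). On HFD 603, 607, 644 and 653 miR-223 read 26.2, 19.3, 15.8 and 45.2. It read 23.2, 20.6, 20.6 and 20.4 on Control 602, 613, 615 and 639. It was called not detected on HFD 644 and 653 and on Control 615 and 652. HFD 603, the first-design array lowest in miR-210, had the highest first-design signal of miR-150 and of several other markers. miR-142-3p, which blood-forming cells make, read 102.0 on HFD 603, against 3.09 to 8.54 on the other first-design arrays. On the second design miR-142-3p was detected in both groups, at 78.2 on HFD 640, 65.3 on Control 635 and 40.2 on Control 652. Over the 3 leukocyte markers, miR-150, miR-142-3p and miR-223, the first-design sum ran from 33.6 to 337.2 in HFD and from 33.1 to 40.4 in Control. Between 0 and 3 of them were detected per first-design HFD array and between 0 and 2 per first-design Control array. miR-216a, of enzyme-secreting acinar cells, read 665.9 on HFD 603 and between 21.0 (Control 639) and 617.7 (Control 602) on the other arrays of that design. On Control 602 miR-210 read 184.1, above every HFD array of that design. miR-217, the partner of miR-216a, was detected on 1 array of the first design, Control 602, and on all 3 of the second. The acinar sum, in which values below background enter as measured, ran from 92.8 to 652.8 in HFD and from 0.951 to 622.6 in Control on the first design. miR-126, of endothelium, ran from 349.7 to 613.0 in HFD and from 387.8 to 501.3 in Control there, with HFD 603 again the highest. The smooth muscle and fibroblast markers miR-143 and miR-145 summed to between 237.9 and 518.2 in HFD and to between 226.5 and 381.5 in Control, with miR-145 not detected on any first-design array. miR-451, of red blood cells, was not detected on any first-design array either. The part of these cells in the miR-210 difference was not tested. Without HFD 603, as given above, the difference was -0.19.

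The miRNAs whose values followed miR-210 most closely over the arrays were miR-98, let-7e, miR-200c, miR-183 and miR-598-3p. Likeness was Pearson's r over the 11 arrays, each value centred on its array design, among 83 other miRNAs detected on all arrays (miR-26b, fixed by the scaling, left out). The r was 0.76 for miR-98, 0.74 for let-7e, 0.66 for miR-200c, 0.62 for miR-183 and 0.59 for miR-598-3p, against a median of 0.055 over the 83. All values share the array and its scaling factor, and these r are descriptions. The same 5 led when values were centred on diet group as well, where let-7e had 0.81, and on the 8 first-design arrays alone, where it had 0.82. Without HFD 603, 3 of these 5 stayed among the first 5, and r was 0.52 for miR-98 and 0.27 for miR-183. The probes named miR-200c differ between the designs, so its likeness may join unlike probes.
miR-98-5p: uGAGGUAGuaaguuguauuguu
let-7e-5p: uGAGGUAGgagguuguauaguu
miR-200c-3p: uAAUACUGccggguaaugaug
miR-183-5p: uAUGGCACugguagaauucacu
The sequences of these miRNAs, from RefSeq, are shown with the seed in capitals to set them against that of miR-210. miR-98 and let-7e share 1 seed, that of the let-7 family, and none of the 4 has the seed of miR-210. HFD minus Control was -0.17 for let-7e, -0.15 for miR-183, -0.049 for miR-98, 0.0083 for miR-200c and 0.018 for miR-598-3p.

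At the other end stood miR-10a-5p with an r of -0.66, miR-15b with -0.55, miR-216a with -0.53, miR-125a-3p with -0.51 and miR-34a with -0.50. Which miRNAs stood at this end depended on the arrays and the centring used. On the 8 first-design arrays alone, 4 of the 5 stayed among the lowest 5. Without HFD 603, r was 0.13 for miR-15b and -0.44 for miR-10a-5p, and 1 of these 5 stayed among the lowest 5. There miR-216a had an r of -0.37, miR-125a-3p -0.31 and miR-34a -0.30. Centring on diet group also left 1 of the 5 there.

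**Figure D5:**
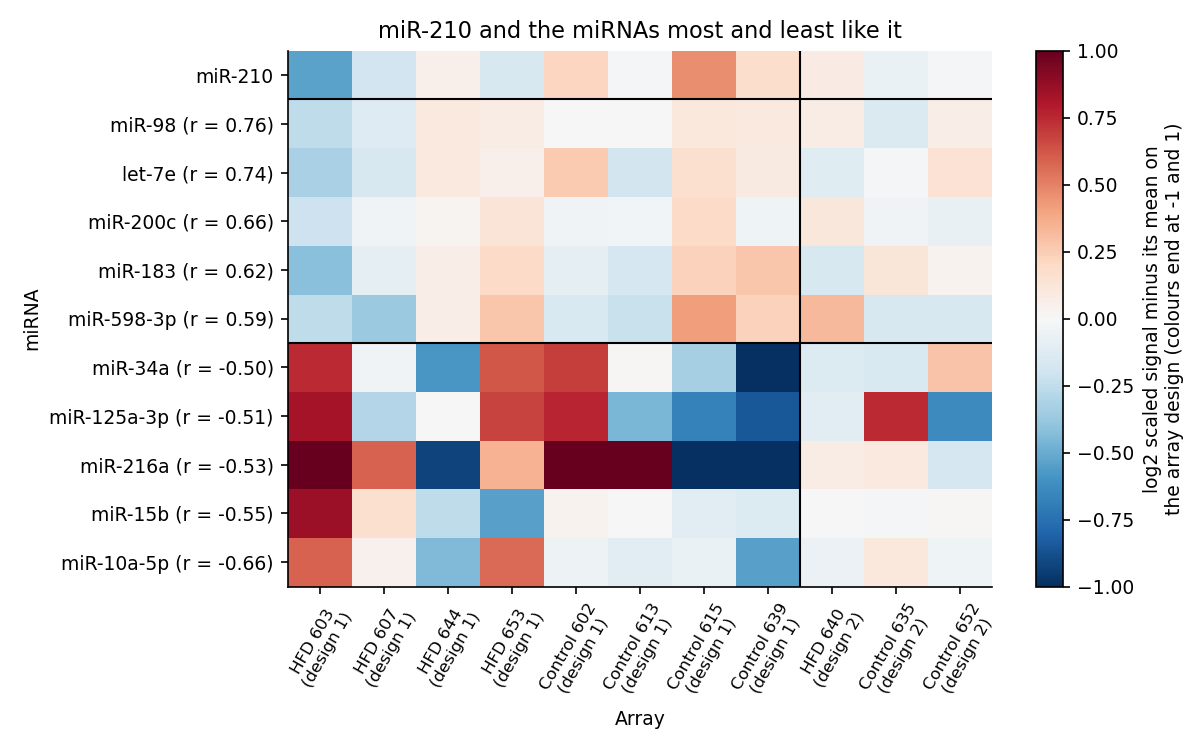
Log2 scaled signal of miR-210 (top row), the 5 miRNAs most like it (middle) and the 5 least like it (bottom) on each array, each minus its mean on the array design, in red where higher and blue where lower, with colours ending at -1 and 1. Within each design, marked off by the vertical line, HFD is left of Control. HFD 603 is low for miR-210 and for the 5 most like it and high for the 5 least like it.

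Over the 8 arrays of the first design, miR-210 was also set against 5 measures of the arrays, with 2-sided exact permutation p over all orders of the arrays and Benjamini-Hochberg adjustment over the 5. Against miR-216a, Pearson's r was -0.54 (exact permutation p = 0.174, adjusted 0.782) and Spearman's rho -0.52 (exact permutation p = 0.197, adjusted 0.492). Without Control 615 and Control 639, the arrays farthest from the median of miR-216a, r was -0.27, and within slide rows it was -0.31. Against miR-375, r was 0.35 (exact permutation p = 0.393, adjusted 0.782) and rho 0.36 (exact permutation p = 0.389, adjusted 0.626), with an r of 0.67 without Control 639 and HFD 607 and 0.16 within rows. Against the number of shared miRNAs detected, r was 0.059 (exact permutation p = 0.869, adjusted 0.869) and rho -0.29 (exact permutation p = 0.501, adjusted 0.626), with an r of -0.22 without HFD 607 and HFD 653 and 0.43 within rows. Against the spread of negative control spots, r was -0.19 (exact permutation p = 0.749, adjusted 0.869) and rho 0.52 (exact permutation p = 0.197, adjusted 0.492), with an r of 0.70 without HFD 603 and HFD 653 and -0.47 within rows. The rows differed in sign there, with an r of 0.995 in the first and -0.75 in the second, which holds HFD 653. Against the scaling percentile, which also enters the scaled value of miR-210, r was 0.30 (exact permutation p = 0.469, adjusted 0.782) and rho 0.14 (exact permutation p = 0.752, adjusted 0.752), with an r of -0.76 without HFD 603 and HFD 653 and 0.33 within rows. None of the 5 relations passed an adjusted p of 0.05.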

How the data were processed

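Per the labels' protocols, each 1-colour Agilent miRNA array took 100 ng of total RNA, with Cy3 as the dye. The deposited spot intensity is background-subtracted and spatially detrended within each array by Agilent Feature Extraction (version 10.5.1.1 on the first design, 10.7.3.1 on the second), per the file headers, and is not normalised between arrays. The authors also deposited log2 tables. The first equals log2 of the software's total signal plus 50, and the second log2 of the total signal where detected, with neither centred. They matched the scanner files within 0.001 in all cells of the first table for the shared names, and in all but 3, 2 and 2 cells of the columns of Control 635, Control 652 and HFD 640. The medians of the columns were 5.69, 5.73, 5.71 and 5.83 for HFD 603, 607, 644 and 653, 6.52 for HFD 640, 5.70, 5.70, 5.68 and 5.69 for Control 602, 613, 615 and 639, and 6.59 and 6.89 for Control 635 and 652. The submitters' processing notes name RMA and Partek without saying what each was used for, and no version is stated.

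Spots without outlier flag were averaged per probe, probes summed per miRNA, and each array scaled by the 75th percentile of its 85 miRNAs found on every array. A floor at the 1st percentile of detected values (10.3) was set before log2 and touched no value of miR-210. limma 3.58.1 in R 4.3.3 fitted HFD minus Control with array design (which coincides with slide and scan) as block over 152 miRNAs detected on at least 5 arrays, 2-sided, with Benjamini-Hochberg adjustment at 0.05. The fit was tested on simulated data. The normexp alternative used spot medians, since these files hold no mean signal. miR-210, the lists and the naming rule (miR-210, list members and markers, and the 5 miRNAs most and least like it) were chosen with earlier results of these data known. The likeness to miR-147 over 6 bases was looked at after the sequences were seen. No pair of arrays held identical values. Alternatives are given in the closing section. The number of arrays limits the precision.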

Additional observations from a re-analysis of the deposited data

Results flagged for a closer look

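On the first design, 72 groups of 4 arrays were checked for 1 array far from the rest (gap to the nearest over the whole range, above Dixon's critical value), and 6 met this, where chance gives about 3.6 (1 in 20). All 6 were Control groups, and miR-210 and its probes were not among them. For miR-10a-5p Control 639 read 6.36 on the log2 scale, against 6.80 to 6.86 on the other Control arrays (ratio 0.881). For miR-143 Control 639 read 7.84, against 8.54 to 8.58 (0.94). For miR-200c Control 615 read 12.85, against 12.62 to 12.63 (0.934). For miR-223 Control 602 read 4.54, against 4.35 to 4.37 (0.912). For miR-322 Control 613 read 4.82, against 4.48 to 4.54 (0.832). For miR-93 Control 613 read 3.86, against 3.36 to 3.44 (0.843), close to the floor of 3.36.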

How the results depend on the processing

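The difference in miR-210 stayed within 1 SD between replicates (0.20) of its reported value under 27 of 29 alternatives, from -0.43 to -0.14. That margin is wide beside the reported value of -0.28 and its SE of 0.14, so staying within it does not mean an unchanged size. The difference moved further with the scaling percentile taken over all 340 names (-0.51) and in the deposited tables (-0.058). A change of scaling factor moves all miRNAs above the floor on an array by the same amount. The medians of both hypoxia lists went down with miR-210, from 0.074 and 0.049 to -0.15 and -0.17. What moved the value in the deposited tables was not tested. Leaving out 1 array at a time gave -0.42 to -0.19 for miR-210, 0.037 to 0.10 for the median of the list raised by hypoxia, -0.14 to 0.10 for that of the HIF-targeting list, 0.44 to 0.63 for the difference between designs and 0 called miRNAs throughout. The median of the list raised by hypoxia was -0.15 with that percentile, -0.075 with median scaling, -0.039 with quantile normalisation and -0.029 with normexp. limma called 0 miRNAs in 26 of 27 alternatives and 1 without scaling between arrays. The software's total signal and the median over probes gave the same miR-210 value as reported, and in each of them the same miRNA as in the reported setting sat at the scaling percentile on every array. Of the 5 miRNAs most like miR-210, between 3 and 5 stayed when HFD 603 or HFD 653 was left out, and of the 5 least like it between 1 and 3. Centring on diet group left 1 of those least like it. Without the 2 farthest arrays, r with miR-210 turned to -0.76 for the scaling percentile, 0.705 for the negative control spread and -0.22 for the number detected. No paired analysis was possible because HFD and Control samples share no replicate number. The difference between designs could not be fitted without HFD 640.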
